A study of Mus musculus with 4 samples.

Results

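The mRNAs of 7 mouse genes that make or modify the egg coat, or that sit on the egg surface where sperm bind and fuse, were followed in 4 RNA-seq libraries of germinal vesicle (GV) stage oocytes. The genes were Zp1, Zp2, Zp3, Astl, Izumo1r, Cd9 and Cd81. They were chosen by name, for what their proteins do, with earlier results of these data known. Their transcripts were found by NCBI gene ID. The 7 genes account for 19 of the 45505 listed transcripts and 7 of the 17374 listed genes, and all 7 passed the filter on low counts that left 12569 genes for testing.

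Oocytes came from C57/Bl6/DBA2J F1 hybrid females at postnatal day 16, without hormone priming, and were held at the GV stage with milrinone, a phosphodiesterase inhibitor that blocks meiotic resumption. Control libraries 1 and 2 were made from oocytes that were not irradiated, and irradiated libraries 1 and 2 from oocytes that received 5 Gy of γ-irradiation and were lysed 24 h later. The labels describe control oocytes as sequenced directly and do not give their hours in culture, so irradiation and time in culture cannot be told apart. Each library is a pool of oocytes, the paper calls the replicates independent, and p-values measure only the spread between these libraries. The zona was dissolved before lysis and polyadenylated RNA was isolated, so the values are those of mRNA and not of the egg coat itself.

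The zona pellucida is a glycoprotein coat that the growing oocyte secretes around itself. ZP2 and ZP3 form its filaments, ZP1 cross-links them, and sperm bind to the amino-terminal region of ZP2. After fertilization the egg releases its cortical granules, and ovastacin, the metalloprotease encoded by Astl, cleaves ZP2 so that further sperm no longer bind. At the plasma membrane, JUNO, the GPI-anchored protein encoded by Izumo1r, is the receptor for sperm IZUMO1, and the tetraspanin CD9 is needed for fusion, with CD81 a related tetraspanin. The transcription factor FIGLA, which acts with E-proteins at E-box motifs (CANNTG), is known to activate the zona genes.

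On the RefSeq annotation of GRCm38, Zp1 lies at chr19:10914296-10920601 on the minus strand, Zp2 at chr7:120126762-120145291 on the minus strand and Zp3 at chr5:135980105-135988624 on the plus strand. Astl lies at chr2:127338639-127357655 on the plus strand and Izumo1r at chr9:14885814-14903951 on the minus strand. Cd9 lies at chr6:125460266-125494760 on the minus strand and Cd81 at chr7:143052750-143067930 on the plus strand. In the GENCODE annotation Zp2 has 18 exons and Zp1 12, while Zp3, Cd9 and Cd81 have 8 each, Astl has 9 and Izumo1r 5.

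Promoter windows of 3 of the genes are printed because E-boxes are where the known activator of zona genes binds and because these genes differ in level. Each window holds 250 bases before and 50 bases after the annotated start, read 5′ to 3′ on the strand of the gene from RefSeq (GRCm38.p6), with every CANNTG in capitals. The windows are chr5:135979855-135980154 (plus strand) for Zp3, chr2:127341386-127341685 (plus strand) for the start of the Astl transcript that carried its reads, and chr9:14903718-14904017 (minus strand) for Izumo1r.
Zp3: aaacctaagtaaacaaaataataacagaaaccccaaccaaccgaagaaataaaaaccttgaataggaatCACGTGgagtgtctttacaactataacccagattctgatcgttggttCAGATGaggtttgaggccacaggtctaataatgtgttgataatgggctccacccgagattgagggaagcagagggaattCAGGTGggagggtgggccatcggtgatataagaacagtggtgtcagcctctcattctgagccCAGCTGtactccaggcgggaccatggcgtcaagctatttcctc
Astl: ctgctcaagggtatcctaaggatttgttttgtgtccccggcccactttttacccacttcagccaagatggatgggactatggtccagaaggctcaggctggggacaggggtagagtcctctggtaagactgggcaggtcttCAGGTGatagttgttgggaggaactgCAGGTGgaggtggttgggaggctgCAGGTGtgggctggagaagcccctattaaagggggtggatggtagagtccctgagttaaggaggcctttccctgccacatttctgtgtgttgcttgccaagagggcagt
Izumo1r: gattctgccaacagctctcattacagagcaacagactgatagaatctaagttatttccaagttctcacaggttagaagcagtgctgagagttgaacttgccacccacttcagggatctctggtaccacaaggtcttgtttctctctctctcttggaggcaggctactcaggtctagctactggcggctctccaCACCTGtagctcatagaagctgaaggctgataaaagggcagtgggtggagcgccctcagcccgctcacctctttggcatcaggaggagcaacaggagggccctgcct

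The Zp3 window holds 4 E-boxes, at 181, 134 and 55 bases before the start and 8 bases after it, and the most distant of them is CACGTG. The Astl window holds 3 copies of CAGGTG, at 109, 83 and 59 bases before the start. The Izumo1r window holds 1 CACCTG, the same motif on the opposite strand, at 57 bases before the start used. That start lies inside the gene, which reaches to 14903951. The known transcripts NM_022888.2 and NM_176807.4 begin upstream of this E-box, at 14903932 and 14903884 in the GENCODE annotation. Which Izumo1r transcript begins at the start used was not determined. Cd9 has 3 E-boxes in its window and Cd81 has 1. CANNTG, which reads the same on both strands and includes the other motifs, was found in 72.3% of 32851 promoter windows of this length, CAGGTG on either strand in 20.2% and CACGTG in 7.15%. A match to these letters is a description of the window and was not related to the level of any gene.

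The values used are the estimated counts and TPM (transcript abundance scaled for length and to the same total in each library) that the authors deposited for each transcript, summed here per gene. Estimated counts summed to between 33349466 and 37232818 per library. The pairs formed by the controls and irradiated library 1 correlated at r = 0.992 to 0.993 across genes (log2 CPM, genes are not independent replicates), and irradiated library 2 correlated with each of them at 0.981 to 0.984. In irradiated library 2, 1821 of 12569 genes (14.5%) lay more than 0.5 log2 units above or below all 3 other libraries, against 201 to 263 genes in each of the others. Results for the 7 genes are therefore given with and without irradiated library 2. The summed TPM of 12 oocyte markers was 29945 to 40397 in the 4 libraries. That of 16 granulosa and cumulus markers was 17.8 to 24.6, and that of 11 theca, stroma, vessel and blood markers 3.94 to 5.95. Of these 11 markers 3 were listed, Pecam1 at 3.85 to 5.79 TPM, Pdgfra at 0.16 or less and Cyp17a1 at 0.02 or less. Among the defining granulosa markers, Amh, Amhr2 and Foxl2 were not listed, and 8 of the 16 were not listed or did not exceed 3 counts in any library. Of the rest, Cyp19a1 was the highest at 8.79 to 10.2 TPM, followed by Nr5a2 at 3.53 to 7.43 and Fshr at 1.66 to 2.89.

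The zona genes were among the most abundant mRNAs of these oocytes. Zp3, which encodes a filament protein, ranked 9 among all genes by mean TPM, Zp2 ranked 34 and Zp1 ranked 108. Cd9 ranked 99, Izumo1r 607, Astl 719 and Cd81 10338. The 7 genes together took 1.83% and 1.96% of the TPM of control libraries 1 and 2, and 1.88% and 2.22% of that of irradiated libraries 1 and 2, of which Zp1, Zp2 and Zp3 held 1.62% and 1.75% in the controls and 1.68% and 2.01% in the irradiated libraries. Neighbours in this order did not always differ beyond their spread. Zp3 was above Zp2 in all 4 libraries, and Zp2 was above Cd9 in all 4, but Cd9 was above Zp1 only in the controls and irradiated library 1, and Izumo1r was above Astl in the same 3 libraries. In irradiated library 2, Zp1 lay above both Zp2 and Cd9, and Astl lay above Izumo1r.

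**Figure D1:**
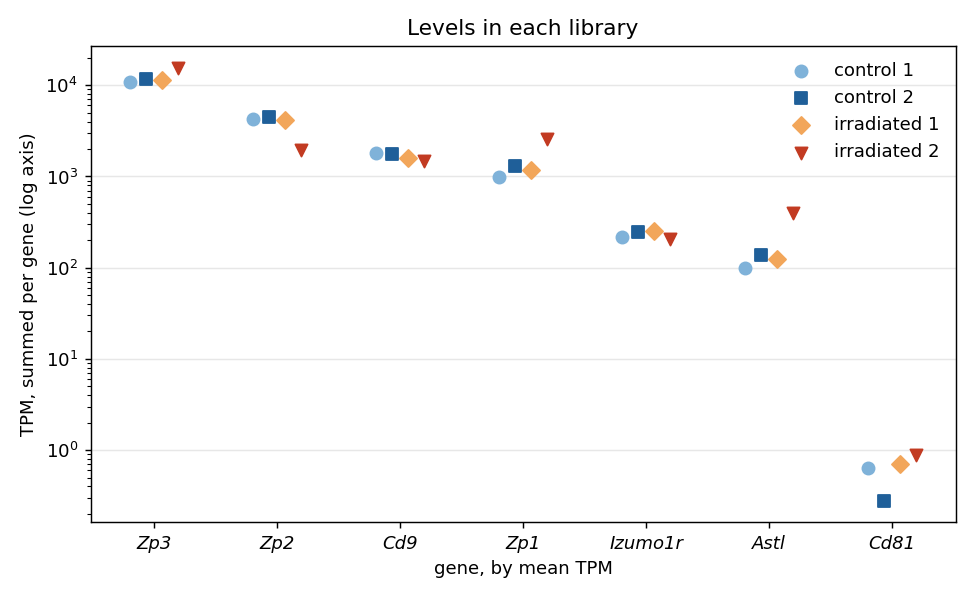
TPM of each gene (log axis, summed over its transcripts) in the 4 libraries, with genes ordered by mean TPM and 1 symbol per library. The symbols of the controls and irradiated library 1 lie close together for every gene but Cd81, and those of irradiated library 2 lie apart for Zp2, Zp1 and Astl.

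Zp2, whose protein is the site of sperm binding, was at 4289.6 and 4452 TPM in control libraries 1 and 2, at 4115 in irradiated library 1 and at 1937 in irradiated library 2. Both irradiated libraries lay below both controls, irradiated library 1 only slightly and irradiated library 2 far below. Means were 4371 ± 115 TPM in controls and 3026 ± 1540.0 in irradiated oocytes (SD, n = 2 each). The log2 fold change was -0.68 (SE 0.503, 95% interval -1.88 to 0.51), with an adjusted p of 0.725 in the quasi-likelihood test of edgeR, and it was -0.12 without irradiated library 2.

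Zp1, the cross-linking component, was at 989 and 1294 TPM in the controls, 1175 in irradiated library 1 and 2579 in irradiated library 2. Irradiated library 1 lay between the controls and irradiated library 2 above them, so the groups overlapped. Means were 1141 ± 216 and 1877 ± 993 TPM (SD, n = 2 each). The log2 fold change was 0.44 (SE 0.324, 95% interval -0.33 to 1.21), with an adjusted p of 0.726 in edgeR, and it was 0.03 without irradiated library 2.

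Zp3 was at 10914 and 11773 TPM in the controls, 11548 in irradiated library 1 and 15619.9 in irradiated library 2. On the TPM scale irradiated library 2 was the highest, at 1.37 times the mean of the other libraries. On counts scaled by TMM factors, which set most genes level between libraries, it lay only 0.04 log2 units above that mean, so the height of Zp3 in this library depended on the scaling. The log2 fold change was 0.03 (SE 0.351, 95% interval -0.81 to 0.86, adjusted p = 0.981 in edgeR), and it was 0.01 without irradiated library 2.

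Astl, which encodes the protease that cleaves ZP2, was at 99.1 and 139 TPM in the controls, 124 in irradiated library 1 and 395 in irradiated library 2. The first 3 values lay within a narrow band and the last was 3.27 times their mean, with overlapping groups. Means were 119 ± 27.95 and 259 ± 191 TPM (SD, n = 2 each). The log2 fold change was 0.82 (SE 0.389, 95% interval -0.11 to 1.74), with an adjusted p of 0.708 in edgeR, and it was 0.05 without irradiated library 2.

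Izumo1r, which encodes the receptor JUNO, was at 219 and 246 TPM in the controls, 254 in irradiated library 1 and 209 in irradiated library 2. The irradiated libraries held both the highest and the lowest value. The log2 fold change was -0.19 (SE 0.239, 95% interval -0.76 to 0.38), with an adjusted p of 0.808 in edgeR. Without irradiated library 2 its sign turned, to 0.12.

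Cd9, which encodes the fusion tetraspanin, was at 1794 and 1742 TPM in the controls and at 1614 and 1491 in irradiated libraries 1 and 2. Both irradiated values lay below both controls. Means were 1768 ± 36.9 and 1552 ± 87.1 TPM (SD, n = 2 each), the log2 fold change was -0.38 (SE 0.266, 95% interval -1.02 to 0.25) and the adjusted p was 0.715 in edgeR. It was -0.15 on the log2 scale when irradiated library 2 was left out.

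Cd81, the related tetraspanin, was at 0.63 and 0.28 TPM in the controls and at 0.71 and 0.89 in irradiated libraries 1 and 2. These values rest on 23, 9, 24 and 28 estimated counts, while the other genes had at least 4888 in every library. The level was near the limit of what the depth resolves, and control library 2 was the lowest. The log2 fold change was 0.56 (SE 0.455, 95% interval -0.52 to 1.64, adjusted p = 0.735 in edgeR), and it was 0.60 without irradiated library 2, 0.07 without control library 2 and 1.33 without control library 1.

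Across the 7 genes the comparison of irradiated with control oocytes gave no call. None passed both limits of the study, which ask for an adjusted p under 0.05 together with a log2 change exceeding 2 in size, in edgeR, where 1 of the 12569 genes tested did (0.00796%). None had an unadjusted p under 0.05, against 745 genes in all (5.93%). DESeq2 put Astl and Zp2 under that limit, among 444 of the 12569 genes. Log2 fold changes were above 0 for 4 genes and below 0 for 3, with 51.4% of all genes above 0, and their median was 0.03 against 0.01 over all genes. Their median size was 0.44 against 0.19 over all genes, and without irradiated library 2 it was 0.12 against 0.14. Zp2 and Cd9 were below the controls in both irradiated libraries, an arrangement found in 19.9% of all genes, and Cd81 was above in both, found in 22.1%. All 95% intervals included 0 and none reached 2 in either direction. The values are scaled within pooled libraries, so the amount of an mRNA per oocyte was not measured. The part of damaged oocytes in a pool was not tested.

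**Figure D2:**
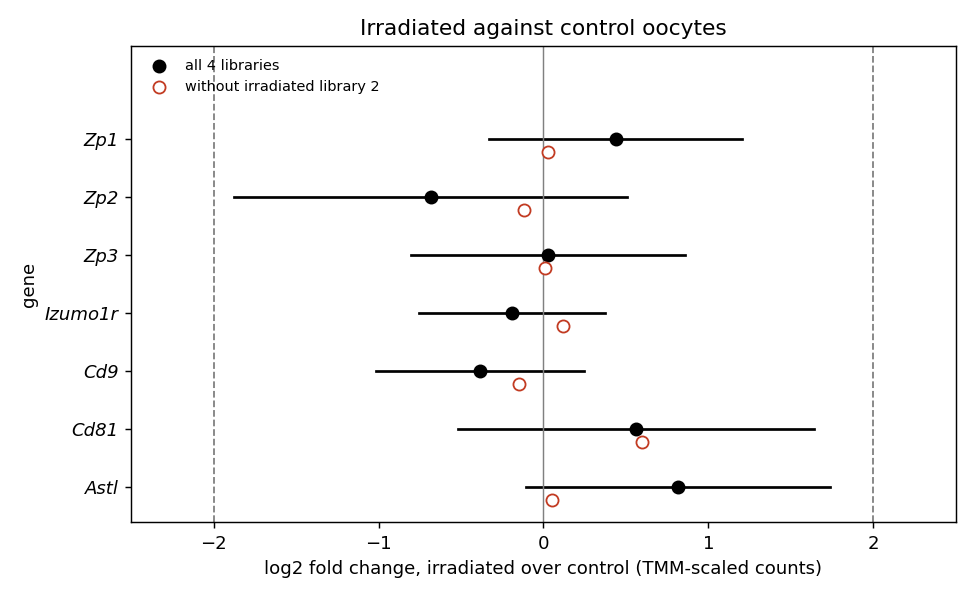
Log2 fold change of each gene, irradiated over control oocytes, on TMM-scaled counts. Black points and bars are the edgeR estimate from all 4 libraries with its 95% interval, open red circles the estimate without irradiated library 2, and dashed lines mark the limit of 2 in size; every bar crosses 0, and the open circles lie within 0.15 of 0 for all genes but Cd81.

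Irradiated library 2 lay more than 0.5 log2 units outside the other 3 libraries for 5 of the 7 genes, where 14.5% of all genes did so. Zp1 and Astl were higher in it and Zp2, Izumo1r and Cd9 were lower. Its distance from the mean of the other 3 was -1.59 log2 units for Zp2, and only 0.215% of all genes lay further down. It was 1.31 for Astl, above 98.9% of genes, and 0.75 for Zp1, above 93.7% of genes. Izumo1r lay at -0.62 and Cd9 at -0.61, with 6.56% and 6.63% of genes further down, while Cd81 lay at 0.37 within the wide range of the other libraries. On the TPM scale 3 of the 7 genes lay outside in this way, Zp1 and Astl above and Zp2 below, with 18.5% of all genes, and the same 3 did so with library size alone as the scale, with 24.1% of all genes. Izumo1r and Cd9 were at 0.871 and 0.868 of the mean TPM of the other libraries, so whether they passed 0.5 depended on the scaling, while Zp1, Zp2 and Astl passed it on all 3 scales, at distances that moved with the scale. By the same measure on TMM-scaled counts none of the 7 genes stood outside in control library 1 or irradiated library 1, and only Cd81 did in control library 2.

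**Figure D3:**
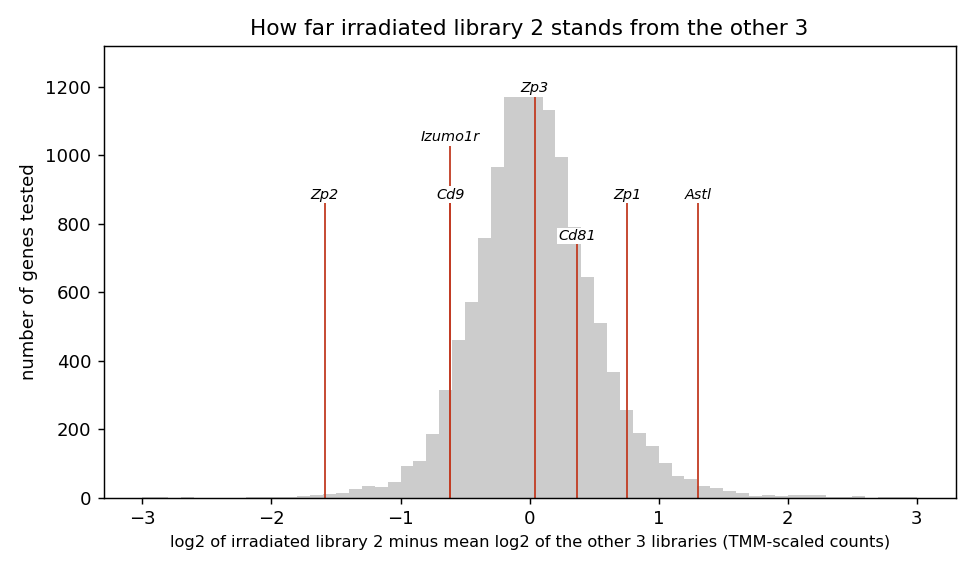
Grey bars count the 12569 genes tested by how far their level in irradiated library 2 lay from the mean of the other 3 libraries (log2, TMM-scaled counts), and red lines mark the 7 genes. Zp2 at -1.59 and Astl at 1.31 lie in the tails, Zp3 at 0.04 lies in the middle.

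Ratios between genes of the same library do not depend on the scaling between libraries. The TPM of Zp1 was 0.231 and 0.291 of that of Zp2 in the controls, 0.286 in irradiated library 1 and 1.33 in irradiated library 2. Control and irradiated means on the log2 scale were -1.95 ± 0.24 and -0.70 ± 1.57 (SD, n = 2 each), and the difference of 1.25 was smaller than the SD of the irradiated libraries. Zp3 was at 2.54 and 2.64 times Zp2 in the controls, at 2.81 times in irradiated library 1 and at 8.06 times in irradiated library 2. The filament proteins ZP2 and ZP3 thus had mRNAs in a nearly fixed ratio in 3 libraries and in another in the fourth. Zp3 was at 11.04 and 9.10 times Zp1 in the controls and at 9.82 and 6.06 times in irradiated libraries 1 and 2. The ratio of Astl, the protease, to Zp2, its substrate, was 0.0231 and 0.0311 in the controls, 0.0302 in irradiated library 1 and 0.204 in irradiated library 2. With 2 libraries a group an exact permutation test of such a ratio cannot reach a p under 0.05, and none was run.

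**Figure D4:**
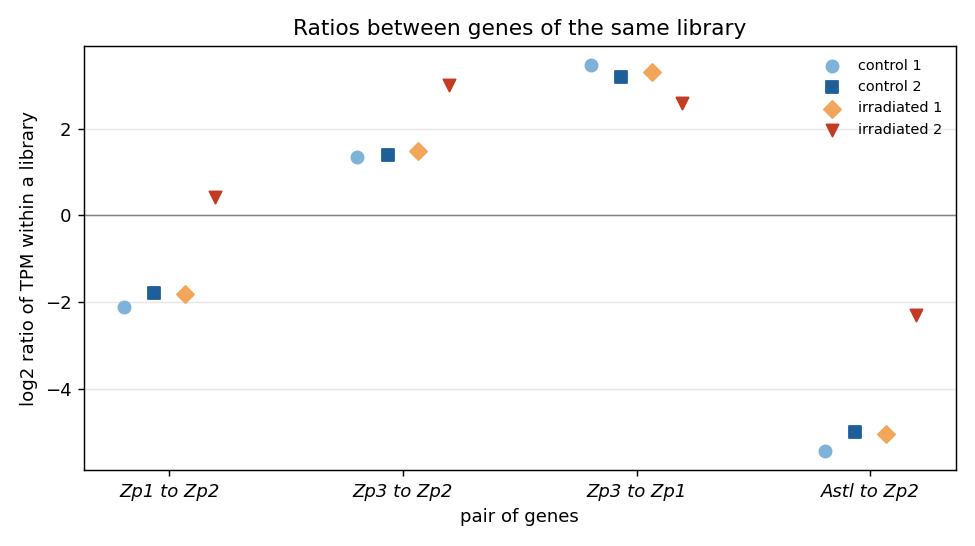
Log2 ratio of TPM for 4 pairs of genes, with 1 symbol per library and a line at 0 where both genes are equal. The controls and irradiated library 1 lie within 0.5 log2 units of each other for each pair, and irradiated library 2 lies apart in all 4, crossing 0 for Zp1 to Zp2.

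The transcripts of the genes showed no call either. Of 19 transcripts 18 could be tested. In edgeR none passed both limits (0% of 26645 transcripts tested) and none had an unadjusted p under 0.05, against 4.9% of all transcripts. DESeq2 put 233 of the 26645 transcripts past both limits, and none of them belonged to these genes. The smallest unadjusted p, 0.176 in the edgeR fit, was that of NM_001291003.1 of Astl. Zp1, Zp3, Cd9 and Cd81 have 1 listed transcript each. Astl had nearly all its counts on NM_001291003.1, whose promoter is printed above, and NM_172539.3 had 0 counts in both controls and 10 in each irradiated library.

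Zp2 reads were divided among 3 transcripts. The known transcript NM_011775.7 took 72.7% and 67.1% of the estimated counts of Zp2 in the controls and 65.4% and 58.6% in irradiated libraries 1 and 2. The predicted XM_006507590.3 took 22.7% and 28.4% in the controls and 30.2% and 37.0% in the irradiated libraries. The irradiated shares of NM_011775.7 lay below those of the controls, by less in irradiated library 1 than the controls differed from each other. Both transcripts were lowest in irradiated library 2 by count, at 50802 and 32052.

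Izumo1r has 10 listed transcripts, 2 known and 8 predicted. The predicted XM_017313502.2 took 59.4% and 66.2% of its counts in the controls and 60.7% and 68.4% in the irradiated libraries, and the known NM_022888.2 took 30.8%, 24.1%, 29.7% and 21.3% in the same order. Replicates of a group thus differed by more than the groups did. Among the minor transcripts, XM_017313503.2 had 0 and 119 counts in the controls and 126 and 0 in irradiated libraries 1 and 2, and XM_017313501.2 had 127 and 1 in the controls and 118 and 0. Replicates of a group thus held a minor transcript at over 100 counts and at 0, and the cause was not tested.

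**Figure D5:**
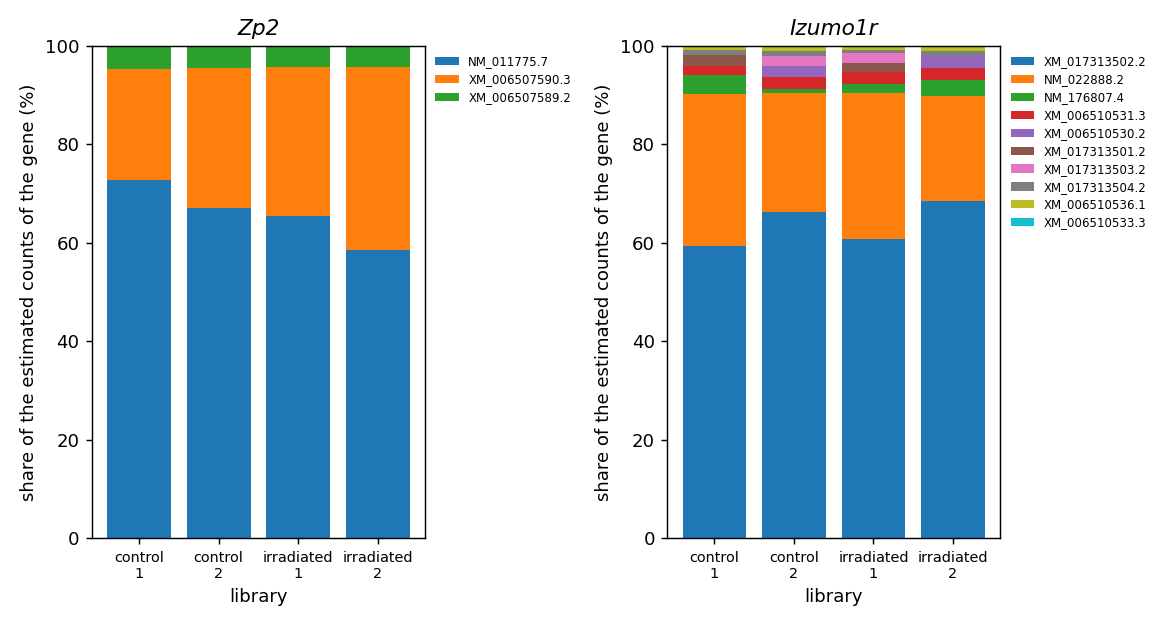
Share of the estimated counts of Zp2 (left) and Izumo1r (right) on each listed transcript, in percent, with 1 stacked bar per library. The leading Zp2 transcript takes 72.7% in control library 1 and 58.6% in irradiated library 2, and the leading Izumo1r transcript takes between 59.4% and 68.4% with replicates of a group further apart than the groups.

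The 3′ ends of the zona mRNAs are shown because the RNA was captured by its poly(A) tail. The last 30 bases before the tail are given 5′ to 3′ on the strand of the gene from the GENCODE transcripts of GRCm38 (for Zp2 the version NM_011775.6), with the polyadenylation signal AATAAA in capitals.
Zp1: actcAATAAAccattgtttgaaaactcctg
Zp2: gactgcagttaaactcttgtcttacatgtt
Zp3: tatcccttccgcAATAAAagaagaaactca
Astl: aggtagaAATAAAgttgggtgtttgcttca

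AATAAA starts 26 bases from the end in Zp1, 18 in Zp3 and 23 in Astl, and in Zp2 it lies just outside the printed stretch, 38 bases from the end. The motif is within the last 30 bases of 50.3% of 28609 transcripts. TTTTAT and TTTTAAT, forms of the cytoplasmic polyadenylation element through which tails of stored oocyte mRNAs are lengthened at maturation, are in the last 100 bases of none of the members' transcripts matched, and in 12.8% and 4.63% of all. These letters describe the annotated ends and were not related to the levels.

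By the smallest root mean square difference in log2(TPM + 1) over the 4 libraries, the genes closest to Zp2 were Npm2, a nucleoplasmin of the egg, at 0.158, and Ooep, a member of the subcortical maternal complex, at 0.175. Npm2 was at 4004 and 3730.3 TPM in the controls, 3889 in irradiated library 1 and 1765 in irradiated library 2, which is the pattern of Zp2. Closest to Zp3 were Pttg1, the securin, at 0.124 and Skp1, a subunit of a ubiquitin ligase, at 0.162. Closest to Astl were Dlgap4 at 0.197 and Rln3 at 0.237, and closest to Zp1 were Ccdc82 at 0.329 and Ube2d3 at 0.368. Izumo1r lay nearest to Sap30 at 0.0610 and Gnpda2 at 0.0631, and Cd9 to Kpna2 at 0.0721 and Psmb2 at 0.0895. Cd81, at its low level, lay nearest to Dnajb3 at 0.0513 and Htd2 at 0.0685. Likeness over 4 libraries follows level first and is no sign of a shared function.

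In a list of 9 genes taken as regulators of zona genes, none passed both limits. None had an unadjusted p under 0.05 in edgeR, where 5.93% of genes did. Figla, chosen after its values were seen because it is the known activator, was at 178 and 180.2 TPM in the controls and at 159 and 166 in irradiated libraries 1 and 2. The most abundant of the 9 were Gdf9 and Bmp15, secreted growth factors and not transcription factors, and Nobox, an oocyte homeobox factor. Whether the 9 act on the zona genes was not tested. Nobox was at 398 and 439.7 TPM in the controls and at 468 and 1215 in the irradiated libraries, with irradiated library 2 far above the rest as for Zp1 and Astl. Gdf9 was at 4474 TPM in irradiated library 2 and between 5582 and 6980.0 in the others, lower there as Zp2 was. Of the 9 genes, 3 lay more than 0.5 log2 units outside in irradiated library 2, where 14.5% of all genes did. They were Nobox, higher, and Gdf9 and Bmp15, lower, and all 3 are also in the list of oocyte markers.

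The genes for secretion and processing of zona proteins numbered 12, all tested, with none past both limits. An unadjusted p under 0.05 in edgeR, which 5.93% of all genes had, was found for 2 of them, both higher in irradiated oocytes. Furin, a proprotein convertase, was at 1.18 and 1.49 TPM in the controls and 1.98 and 14.98 in the irradiated libraries, a log2 fold change of 2.30 (SE 0.704) with an adjusted p of 0.708 in edgeR, and it stood apart in irradiated library 2. Mgat1, which starts complex N-glycans, had a log2 fold change of 0.51. The abundant chaperones Hspa5, Canx and Calr were not among the genes under that limit. Of 13 genes for cortical granule exocytosis, the route by which ovastacin leaves the egg, 11 were tested and none had an unadjusted p under 0.05 in edgeR. Rab11a, Napa and Nsf were the most abundant of them, and Rab11a was at 253, 250.6, 252 and 202 TPM in the same order of libraries.

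Of 19 tetraspanins and tetraspanin partners, the family of CD9 and CD81, 15 were tested and none passed both limits. Cd151 and Tspan14 had an unadjusted p under 0.05 in edgeR, as 5.93% of all genes did, with log2 fold changes of 0.83 and 0.67, and both stood apart in irradiated library 2. Cd151 was at 5.07 and 5.95 TPM in the controls and 7.06 and 17.2 in the irradiated libraries, and Tspan14 at 13.95 and 15.8 against 18.1 and 39.4. The most abundant tetraspanin was Cd9 at 1491 TPM or more, and the listed relatives were led by Tspan3 at 147 to 161 TPM, Tspan31 at 22.99 to 42.2 and Tspan14. Of 7 egg integrins, which partner tetraspanins at the membrane, 6 were tested with none under that limit in edgeR, and Itga9, Itga6 and Itgb1 were the most abundant. Of 28 genes for GPI anchor synthesis and transfer, the pathway that anchors JUNO, 27 were listed and 25 tested. None of these passed both limits, and Pigs and Gpaa1, subunits of the GPI transamidase, had an unadjusted p under 0.05 in edgeR, as 5.93% of all genes did, with log2 fold changes of 0.78 and 0.50. Pigs was at 8.50 and 11.4 TPM in the controls, 11.01 in irradiated library 1 and 30.6 in irradiated library 2, so that only the last lay above both controls. Pigf, Pigp and Dpm2 led this list by TPM. A list of 9 genes held folate receptors, which are relatives of JUNO, folate carriers, and astacin proteases, which are relatives of ovastacin. Of these 4 were tested and none had an unadjusted p under 0.05 in edgeR, where 5.93% of all genes did. The folate carrier Slc19a1 and the proteases Mep1b and Tll1 led this list at under 4 TPM.

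Most genes for the sperm side of binding and fusion, which an oocyte should lack, were at or near 0, but Izumo4 was at 16.7 and 20.5 TPM in the controls and 19.3 and 36.1 in the irradiated libraries. Of 19 such genes 15 were listed, and 11 did not exceed 3 counts in any library or were not listed. Of these 19 genes 6 were tested, with none at an unadjusted p under 0.05 in edgeR (5.93% of all genes were). Their summed TPM was 21.5 and 25.4 in the controls and 23.1 and 43.3 in the irradiated libraries, most of it from Izumo4. Zpbp2 and Zp3r were next, at 0.98 to 3.40 TPM. Of the 12 oocyte markers none passed both limits and none had an unadjusted p under 0.05 in edgeR (5.93% of all genes did). In irradiated library 2, 6 of them lay more than 0.5 log2 units outside (14.5% of all genes did). Nobox was higher and Gdf9, Bmp15, Ooep, Padi6 and Dppa3 were lower. Nobox, Gdf9 and Bmp15 were already counted among the regulators of zona genes. The summed TPM of the 12 markers was 40278 and 39386 in the controls, 40397 in irradiated library 1 and 29945 in irradiated library 2. The largest part was Dppa3, at 22942 and 21911 in the controls and 20596 and 16142 in irradiated libraries 1 and 2. The sum was lowest where Zp2 was lowest, but it follows its most abundant genes and not each marker. Nobox was highest in irradiated library 2. The granulosa sum was 18.02 and 20.5 in the controls and 17.8 and 24.6 in the irradiated libraries. The part of cell makeup or RNA quality in the levels of the 7 genes was not tested.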

How the data were processed

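RNA-seq of mouse GV oocytes was analysed in 4 libraries, 2 control and 2 irradiated, grouped by their titles. Per the paper, paired-end reads of 100 bp were quality-trimmed and aligned to GRCm38 with Bowtie2. The submitters' processing notes also name HISAT2 and RSEM without a role. The authors deposited estimated counts per RefSeq transcript, not scaled for depth, and TPM values. Another 10 value columns (4 FPKM, 6 averages) were left out.

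Counts and TPM were summed per gene ID, and 17323 of 17374 IDs matched a RefSeq symbol. Rounded counts went into edgeR 4.0.16 under R 4.3.3 (filterByExpr, minimum count 10, TMM factors, quasi-likelihood fit, Benjamini-Hochberg adjustment over all features), without a block. Other scalings and filters, DESeq2 1.42.0, limma 3.58.1 on log2(TPM + 1) and log2(TPM + 0.1), a replicate block and leaving out each library were alternatives. Tests were also run on simulated counts in which no library stood apart, a setting unlike irradiated library 2 here. Shared-out transcript counts carry an estimation error beyond counting. Genes named beside the 7 are the 3 most abundant of each list, those at an unadjusted p under 0.05 and the 2 nearest in level to each member. Figla, Padi6 and the absent granulosa markers were named after their values were seen. The members and lists were chosen with earlier results of these data known.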

Additional observations from a re-analysis of the deposited data

How the results depend on the processing

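Of 82 values of the 7 gene totals over all alternatives, 1 turned sign, Izumo1r, whose log2 fold change ran from -0.59 to 0.12 when single libraries were left out (0.12 without irradiated library 2). No member passed both limits in any alternative. Of 12569 genes, 444 had an unadjusted p under 0.05 with DESeq2, 586 with library size alone and 1299 with the replicate block. Without the low-count filter 1197 of 17374 genes did. Astl was under that limit in each of these fits, and Zp2 also in DESeq2. The number of members under it was 0 in the main fit, 2 with DESeq2 and 1 in each other fit named here. It ran from 0 to 5 when single libraries were left out, 5 without irradiated library 1, where 4468 of 13011 genes had an adjusted p under 0.05 in edgeR and the 5 members among them. Without irradiated library 2 it was 101 of 12761 genes and no member. In both fits the spread came from the 2 controls and the lone irradiated library was assumed to vary like them. With all libraries kept, adjusted p of the members lay between 0.38 and 1 over the alternatives in edgeR, DESeq2 and limma. The paper does not state whether libraries of the same number were paired. The replicate differences of the groups correlated at 0.10, which with 2 libraries a group cannot settle the pairing. With the replicate block 7 of 12569 genes passed both limits, against 1 without it, and no other member changed its call. The median log2 fold change of the members was 0.19 with library size alone, which shifted the median of all genes by 0.16 and put 73.0% of genes above 0, 0.12 in limma on log2(TPM + 1) and log2(TPM + 0.1), and 0.24 in limma without the filter. Cd81 gave no value in the limma fits with a filter, which asked for 1 TPM in 2 libraries. By TMM-scaled counts 3 of 7 genes kept their place in the order of levels, and in irradiated library 2 alone 2 did. The number of members outside the other libraries in irradiated library 2 was 3 with TPM and 3 with library size alone, scalings chosen after seeing the data. The difference in the log2 ratio of Zp1 to Zp2 became 0.14 when irradiated library 2 was left out and 2.36 when irradiated library 1 was.

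Of 162 values of 18 transcripts, 16 in 9 transcripts turned sign. With single libraries left out the log2 fold change ran from -0.92 to 0.24 for NM_022888.2, -0.82 to 1.104 for NM_176807.4, -1.07 to 0.13 for XM_006507590.3, -9.20 to 3.07 for XM_006510530.2, -0.39 to 0.36 for XM_006510531.3, -0.20 to 1.07 for XM_006510533.3, -9.06 to 5.70 for XM_017313501.2, -0.44 to 0.0695 for XM_017313502.2 and -9.04 to 9.10 for XM_017313503.2. NM_176807.4 was at 0.0197 with library size alone and 0.12 with the replicate block, and XM_017313503.2 at -0.0716 with the block. The cause was not tested. Each group held 2 libraries, and Cd81 and the minor transcripts also rest on low counts.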
